A study of Mus musculus with 36 samples.

Results

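The genes described here encode the machinery that holds chromosomes on the mitotic spindle and delays their separation until every one is attached. They are the 10 rows named Bub1, Bub1b, Mad2l1, Ttk, Ndc80, Nuf2, Spc24, Spc25, Cenpe and Cenpf, taken by gene symbol, of 18116 named genes in the table for female mice and 18291 in the table for male mice (17716 names in both). All 10 were listed in both tables and passed the filter on low counts in every comparison. The 36 wild-type C57BL/6 mice gave left lung RNA, with 3 males and 3 females in each of 6 groups. The groups received saline (control), MC252 crude oil, the dispersant Corexit 9500, the dispersant Corexit 9527, or oil with either dispersant (9500+oil, 9527+oil). Each mouse was given 50 µL into the airways on days 0, 7 and 13 from 8 weeks of age and was killed on day 14. Control mice received saline and the others the agent mixed with saline and diluted 10-fold (0.1 WAF in the labels). Per the study's methods, the saline phase was taken off for oil alone, and the mixtures with a dispersant were given without removing a phase. The series' design text calls the route intratracheal instillation and the study's methods call it oropharyngeal aspiration. The sexes were counted in separate tables, so that sex and table cannot be told apart, and nothing in the labels says whether mice of a group shared a cage.

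At mitosis each chromosome is gripped by microtubules through its kinetochore, a layered protein complex built on the centromere. The Ndc80 complex is the part that touches the microtubule, and the spindle assembly checkpoint is a set of kinases and inhibitors that gathers on kinetochores without attached microtubules and blocks the anaphase-promoting complex. These genes are transcribed mainly in the G2 and M phases, so that in a tissue of mostly resting cells such as the adult lung their RNA comes from the few cells in division. In RNA from whole tissue, more cells in division and more RNA per dividing cell cannot be told apart.

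The 10 genes were all at their highest group mean in the Corexit 9527 mice, in male and in female mice alike. In female mice without the 4 libraries over 20% mitochondrial counts this held for 9 of 10. There Mad2l1 was highest in Corexit 9500, with 26.2 CPM in mouse 7 and 12.1 and 19.9 CPM in the other 2. In male mice every gene was higher in all 3 Corexit 9527 mice than in all 3 saline mice, by a median of 2.38-fold (1.25 on the log2 scale), where 10.5% of all genes were higher without overlap. Mice given oil with the same dispersant did not show these levels: over both sexes the 10 genes were lower in 9527+oil than in Corexit 9527 by a median of 2.85-fold, and 4 of them, Bub1, Mad2l1, Nuf2 and Spc25, fell at an adjusted p under 0.05 (0.559% of all genes were called), a number that ranged from 0 to 10 when single mice were left out. With all mice of the groups compared and no others, edgeR called none of the 10 at that threshold in Corexit 9527 against saline in male mice, in female mice or in both, and it called 8 over both sexes without the libraries over 20% mitochondrial counts, where it called 2.13% of all genes against 0.0326% with them. In female mice 1 saline library and 1 Corexit 9527 library stood apart from the rest. The values of the 10 genes are given with and without them, and those of the gene lists and cell markers with them only.

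Some promoters of these genes carry letters known from cell cycle genes, and those with such letters near the start are shown because the 10 genes varied together. RefSeq promoters (GRCm38.p6, 250 bases before to 50 after the annotated start) were at hand for 9 of the 10 genes, all but Spc24. A motif called the cell cycle genes homology region, TTTGAA, is the textbook site of the complexes that hold G2 and M genes silent in resting cells and switch them on in dividing cells. TTTGAA on either strand was found in 5 of the 9 promoters (Cenpf, Spc25, Bub1b, Ttk and Ndc80), each time within 50 bases of the start, while 17.9% of all 32851 promoters held it anywhere and 5.14% within 50 bases of the start. The variant TTCGAA was found in 2 of the 9 promoters, Bub1 and Bub1b, and in 1.56% of all promoters. In Bub1 it began at base 15 of the transcript, and 0.390% of all promoters held it within 50 bases of the start. The sites are printed below 5′ to 3′ in the direction of the gene, 30 bases each, with the motif in capitals (TTCAAA where it lies on the other strand).
Cenpf, chr1:189688067-189688096, minus strand: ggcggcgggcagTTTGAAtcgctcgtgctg
Spc25, chr2:69206172-69206201, minus strand: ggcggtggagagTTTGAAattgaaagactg
Bub1b, chr2:118598231-118598260, plus strand: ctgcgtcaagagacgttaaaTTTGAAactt
Ttk, chr9:83834684-83834713, plus strand: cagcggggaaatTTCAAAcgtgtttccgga
Ndc80, chr17:71526811-71526840, minus strand: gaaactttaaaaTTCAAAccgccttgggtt
Bub1, chr2:127831828-127831857, minus strand: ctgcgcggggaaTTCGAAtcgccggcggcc

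The CCAAT box, the site of the factor NF-Y, was found on either strand in 6 of the 9 promoters against 37.4% of all promoters, and in 4 of them (Cenpf, Spc25, Bub1 and Ttk) at least 2 times against 11.7% of all. In Cenpf, Spc25 and Ttk both boxes lie upstream of the start on the same strand as the gene. The 150 bases before the start of these 3 genes are printed with CCAAT in capitals.
Cenpf, chr1:189688087-189688236, minus strand: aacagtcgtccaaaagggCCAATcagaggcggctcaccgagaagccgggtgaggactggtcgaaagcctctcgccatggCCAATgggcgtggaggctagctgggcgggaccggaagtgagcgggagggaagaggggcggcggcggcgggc
Spc25, chr2:69206214-69206363, minus strand: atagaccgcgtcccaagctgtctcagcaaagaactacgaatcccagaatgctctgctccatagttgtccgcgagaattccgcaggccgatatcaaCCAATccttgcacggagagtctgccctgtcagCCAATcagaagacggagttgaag
Ttk, chr9:83834539-83834688, plus strand: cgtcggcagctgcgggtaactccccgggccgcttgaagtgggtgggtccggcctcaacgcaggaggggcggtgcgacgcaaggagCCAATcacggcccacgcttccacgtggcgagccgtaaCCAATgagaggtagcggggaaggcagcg
The boxes begin 132 and 71 bases before the start in Cenpf, 55 and 23 bases before it in Spc25, and 65 and 28 bases before it in Ttk. A further variant, TTTAAA, was found in Cenpf, Cenpe and Ndc80 and in 13.2% of all promoters. No match to any of these motifs was found in the windows of Nuf2 and Mad2l1. The Mad2l1 window (chr6:66534971-66535270, plus strand) ends upstream of the gene start in GENCODE, 66535390. Bases around that start were therefore not searched. The letters TTTGGCGC, a site of E2F factors, matched in 0 of the 9 windows and in 0.514% of all promoters. A match of letters is a description and not a binding site.

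The depth of the libraries ran from 17501180 to 30011557 counts per mouse. Levels are given in CPM, counts per 1000000 of a library's effective size after TMM normalization, and the 10 genes had between 0 and 672 counts in a library, with medians per gene from 31 (Ttk) to 290.5 (Mad2l1). Lung epithelial markers were present in every mouse, Sftpc at 3564 CPM or more and Scgb1a1 at 6178 CPM or more. In 4 female libraries over 20% of counts were mitochondrial, namely in saline mouse 3 (45.1%), Corexit 9527 mouse 11 (38.4%), oil mouse 6 (22.6%) and 9500+oil mouse 14 (20.7%), against 5.27% to 11.3% in the other 32 mice. In saline mouse 3 the genes departed from the other 2 saline mice in opposite directions, with 7 of them 1.55 to 8.33 times the mean of the others, Ttk at 0 counts, Bub1b at 0.144 times and Spc24 at 0.588 times. Bub1b and Spc24 have the highest GC content of the 10 transcripts (50.4% and 52.9% against 40.1% to 45.4%), while Ttk, at 0 counts, has 43.0%. What part GC content had in these levels was not tested. In Corexit 9527 mouse 11, 7 genes were 1.71 to 4.13 times the mean of the other 2 mice (the largest ratio in Ttk). Bub1b was 0.474, Bub1 (41.0% GC) 0.805 and Spc24 0.891 times that mean. Oil mouse 6 and 9500+oil mouse 14 were the highest of their group in all 10 genes. Corexit 9500 mouse 7 of the females, which was kept at 11.3% mitochondrial counts, had 14611 genes with a count, near the 14408 of mouse 11.

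**Figure D1:**
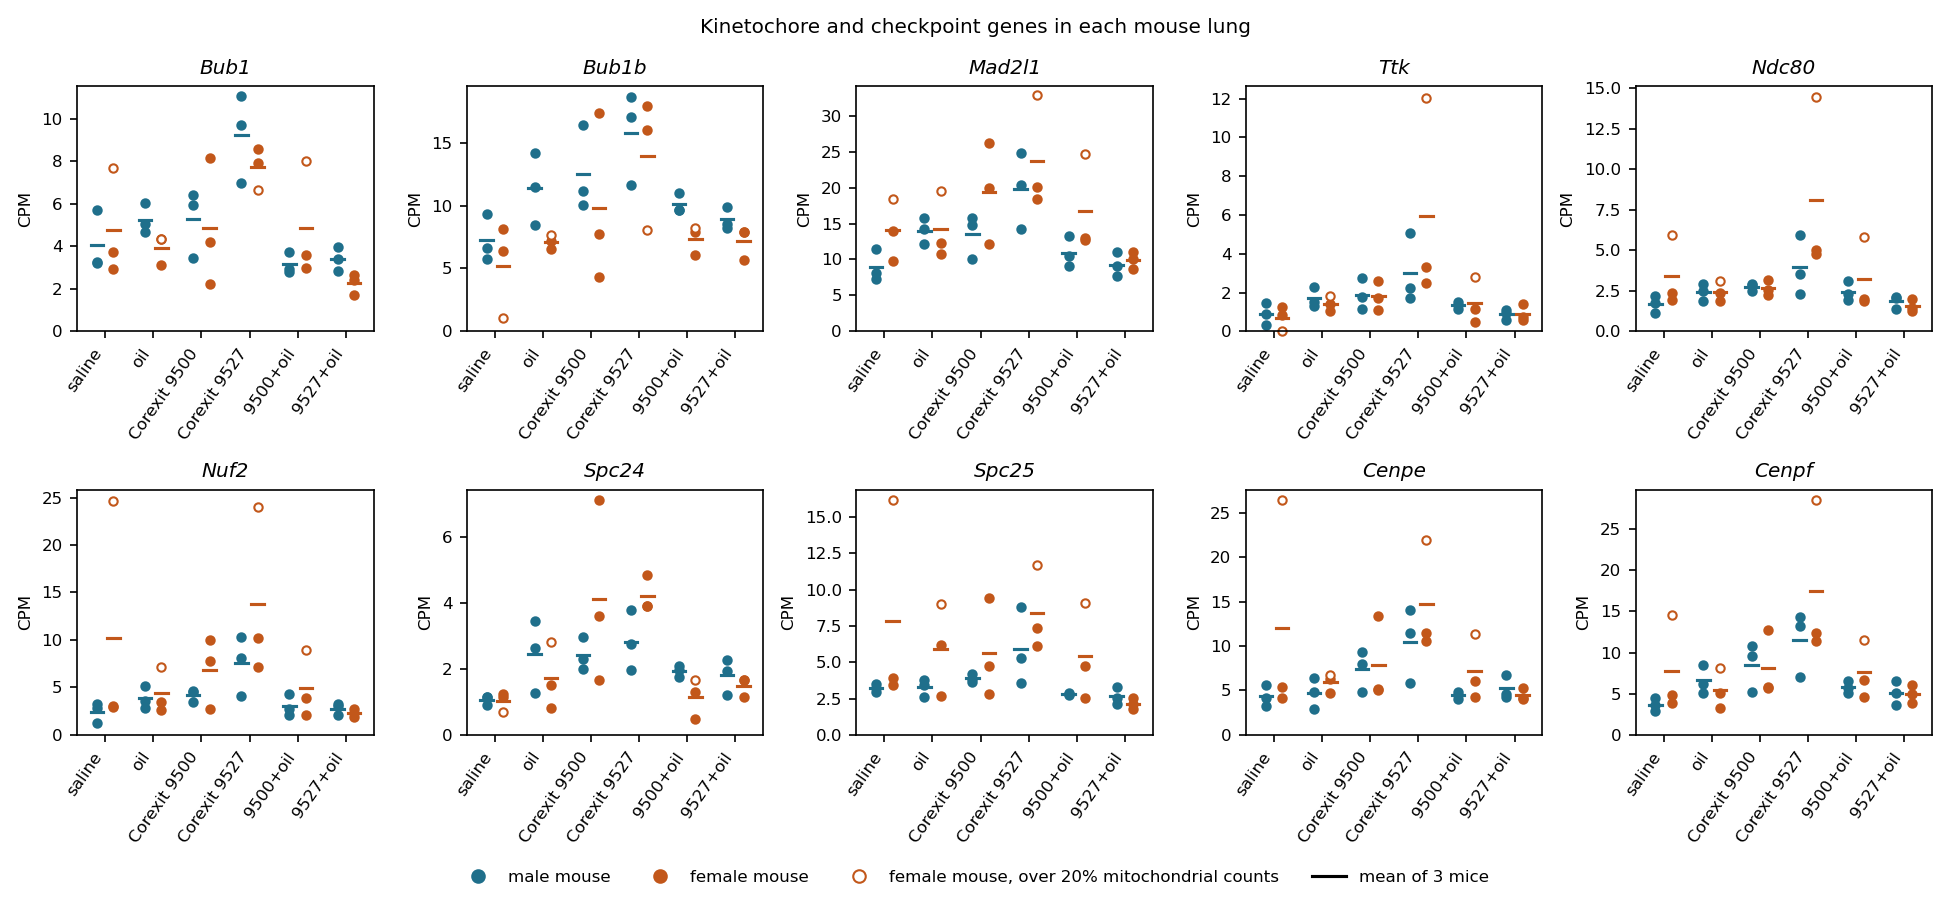
Level of each gene in CPM (linear axis from 0, a scale of its own for each gene) in each of the 36 mice by treatment group, with male mice in blue, female mice in orange, the 4 female libraries with over 20% mitochondrial counts as open circles, and a bar at the mean of 3 mice. The Corexit 9527 group has the highest mean of the 6 groups in all 10 genes in either sex, and in saline several open circles lie far from the other 2 female mice.

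Corexit 9527 against saline is given first, since it is the treatment in which all 10 genes reached their highest mean. That order was set by the values of the 10 genes, while the shares of all genes printed here and for 9527+oil against Corexit 9527 were not chosen so, which favours the 10. In male mice 0 of the 10 genes were called at an adjusted p under 0.05 with edgeR, against 0.114% of the 14919 genes tested, and the lowest adjusted p was 0.0729 (Cenpf). At an unadjusted p under 0.05, the threshold the study used for gene lists, 10 of 10 were higher, against 7.96% of all genes, and 10 of 10 were higher without overlap of the 3 and 3 mice, against 10.5% of all genes. Their median log2 fold change was 1.25, and that of all genes tested -0.0093. The 10 genes varied together in the same mice, mouse 11 being the highest and mouse 12 the lowest of the Corexit 9527 males in all 10 genes, so that the count of 10 does not stand for 10 separate observations. Without mouse 12 the adjusted test called 4 of the 10, and 211 of all 15143 genes. DESeq2 called 7 of the 10 and 587 of all 14919 genes, and voom with quality weights 1 and 111.

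Bub1 and Bub1b encode related checkpoint proteins, a kinase that marks the centromere and the inhibitor BubR1. Bub1 (chromosome 2, 127801122 to 127831865) was at 5.72, 3.21 and 3.25 CPM in male saline mice and at 9.71, 11.1 and 6.98 CPM in male Corexit 9527 mice, a log2 fold change of 1.19 ± 0.29 (SE, adjusted p = 0.145). The lowest Corexit 9527 male lay above the highest saline male. In female mice it was at 2.92, 3.75 and 7.68 CPM in saline and 8.59, 6.66 and 7.94 CPM in Corexit 9527, where saline mouse 3 reached above Corexit 9527 mouse 11. Bub1b (chromosome 2, 118598211 to 118641591) was at 9.30, 5.78 and 6.63 CPM in male saline and 17.0, 18.6 and 11.6 CPM in male Corexit 9527 mice (1.13 ± 0.24, adjusted p = 0.107). Its female values were 6.41, 8.14 and 1.05 CPM in saline and 17.9, 8.03 and 16.0 CPM in Corexit 9527. The female groups of Bub1b overlapped only between saline mouse 2 and Corexit 9527 mouse 11, and saline mouse 3 had 9 counts.

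Mad2l1 encodes Mad2, the protein that binds Cdc20 and so restrains the anaphase-promoting complex, and Ttk encodes Mps1, the kinase that starts checkpoint signalling at the kinetochore. Mad2l1 (chromosome 6, 66535390 to 66547220), the gene of the 10 with the most counts, was at 11.4, 7.25 and 8.08 CPM in male saline and 20.4, 24.8 and 14.3 CPM in male Corexit 9527 mice (1.16 ± 0.24, adjusted p = 0.106). In female mice it was at 14.0, 9.72 and 18.4 CPM and 20.05, 32.9 and 18.4 CPM, and the groups met at saline mouse 3 and Corexit 9527 mouse 12, both at 18.4 CPM. Ttk (chromosome 9, 83834689 to 83872389), the gene with the fewest counts, was at 0.896, 0.315 and 1.44 CPM in male saline and 2.25, 5.05 and 1.71 CPM in male Corexit 9527 mice (1.75 ± 0.60, adjusted p = 0.247). In female mice it was at 1.26, 0.836 and 0 CPM in saline and 3.31, 12.0 and 2.51 CPM in Corexit 9527 mice. The groups of Ttk did not overlap in either sex, with the 0 counts of saline mouse 3 allowing up to 0.349 CPM (3 counts, counting error only) and with the highest level of all in Corexit 9527 mouse 11.

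Ndc80, Nuf2, Spc24 and Spc25 encode the 4 subunits of the Ndc80 complex, Ndc80 and Nuf2 facing the microtubule and Spc24 and Spc25 the inner kinetochore. Ndc80 (chromosome 17, 71496100 to 71526857) was at 2.19, 1.10 and 1.76 CPM in male saline and 3.56, 5.97 and 2.33 CPM in male Corexit 9527 mice (1.23 ± 0.43, adjusted p = 0.252). Nuf2 (chromosome 1, 169497934 to 169531464) was at 2.84, 1.26 and 3.20 CPM and 8.11, 10.3 and 4.14 CPM in the same mice (1.62 ± 0.43, adjusted p = 0.165). In both genes the male groups were separate, with 2.19 CPM in the highest saline and 2.33 CPM in the lowest Corexit 9527 male for Ndc80. In female mice Ndc80 was at 2.35, 1.95 and 5.94 CPM in saline and 5.04, 14.5 and 4.76 CPM in Corexit 9527, and Nuf2 at 3.04, 2.88 and 24.7 CPM and 7.10, 24.0 and 10.2 CPM. Saline mouse 3 held the highest Nuf2 level of the 36 mice, above every Corexit 9527 mouse.

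Spc24 (chromosome 9, 21755442 to 21760303) was at 1.14, 1.16 and 0.903 CPM in male saline and 2.75, 3.79 and 1.97 CPM in male Corexit 9527 mice (1.41 ± 0.37, adjusted p = 0.161). In female mice it was at 1.14, 1.24 and 0.698 CPM and 4.86, 3.91 and 3.91 CPM (2.03 ± 0.63). Spc24 and Ttk were the 2 genes higher without overlap in both sexes. Spc25 (chromosome 2, 69193895 to 69206194) had the smallest male difference, with 3.53, 2.94 and 3.20 CPM in saline and 5.31, 8.79 and 3.57 CPM in Corexit 9527 mice (0.87 ± 0.34, adjusted p = 0.303). Its lowest Corexit 9527 male stood at 3.57 CPM, next to the highest saline male at 3.53 CPM. In female mice Spc25 was at 3.90, 3.41 and 16.2 CPM in saline, the last of these in mouse 3, and 6.15, 11.7 and 7.33 CPM in Corexit 9527 mice.

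Cenpe encodes a kinesin that carries chromosomes along microtubules to the spindle equator, and Cenpf a large coiled-coil protein of the outer kinetochore. Cenpe (chromosome 3, 135212537 to 135273611) was at 5.57, 4.10 and 3.29 CPM in male saline and 11.5, 14.0 and 5.84 CPM in male Corexit 9527 mice (1.28 ± 0.34, adjusted p = 0.166). Cenpf (chromosome 1, 189640606 to 189688086) was at 2.89, 3.57 and 4.47 CPM and 13.2, 14.3 and 6.98 CPM in the same mice (1.66 ± 0.30, adjusted p = 0.0729), or 3.16-fold. The lowest Corexit 9527 male, mouse 12, lay well above the saline males in Cenpf and close to saline mouse 1 in Cenpe. In female mice Cenpe was at 5.40, 4.15 and 26.4 CPM in saline and 11.5, 21.98 and 10.6 CPM in Corexit 9527, and Cenpf at 4.83, 3.84 and 14.6 CPM and 11.4, 28.5 and 12.4 CPM. The annotation places Gm37239 over part of Cenpf and Gm23115 over part of Ndc80, and whether reads were assigned by strand is not given. In both Cenpe and Cenpf saline mice 1 and 2 lay below every Corexit 9527 female and saline mouse 3 did not. Per kilobase of the longest coding transcript, mean levels in male saline mice ran from 0.308 CPM (Ttk) to 2.11 CPM (Spc25), and in male Corexit 9527 mice from 1.03 CPM (Cenpf) to 4.30 CPM (Bub1b).

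With all 3 mice a group, 1 of the 10 genes (Spc24) was higher in female Corexit 9527 mice at an unadjusted p under 0.05, against 0.247% of the 15004 genes tested, and 2 were higher without overlap (2.92% of all). None was called at an adjusted p under 0.05 by edgeR, DESeq2 or voom with quality weights, and at an unadjusted p under 0.05 DESeq2 had 2 higher (as 86 of all 15004 genes) and voom 10 (as 895). The 10 log2 fold changes were all above 0, from 0.08 (Spc25) to 3.05 (Ttk), with a median of 0.95 and standard errors of 0.46 to 1.36. Without saline mouse 3 and Corexit 9527 mouse 11, 10 of 10 were higher at an unadjusted p under 0.05, against 2.97% of all genes in that fit of 2 and 2 mice. The log2 fold changes then ran from 0.70 (Mad2l1) to 1.88 (Spc24) with a median of 1.26 and standard errors of 0.23 to 0.44, and the lowest adjusted p was 0.350. The direct test of the sexes against each other gave no gene at an unadjusted p under 0.05 (edgeR, lowest p 0.315), with differences in log2 fold change, female minus male, of -1.21 to 1.26, a median of -0.45 and standard errors of up to 1.41. Without the libraries over 20% mitochondrial counts the median difference was -0.05.

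**Figure D2:**
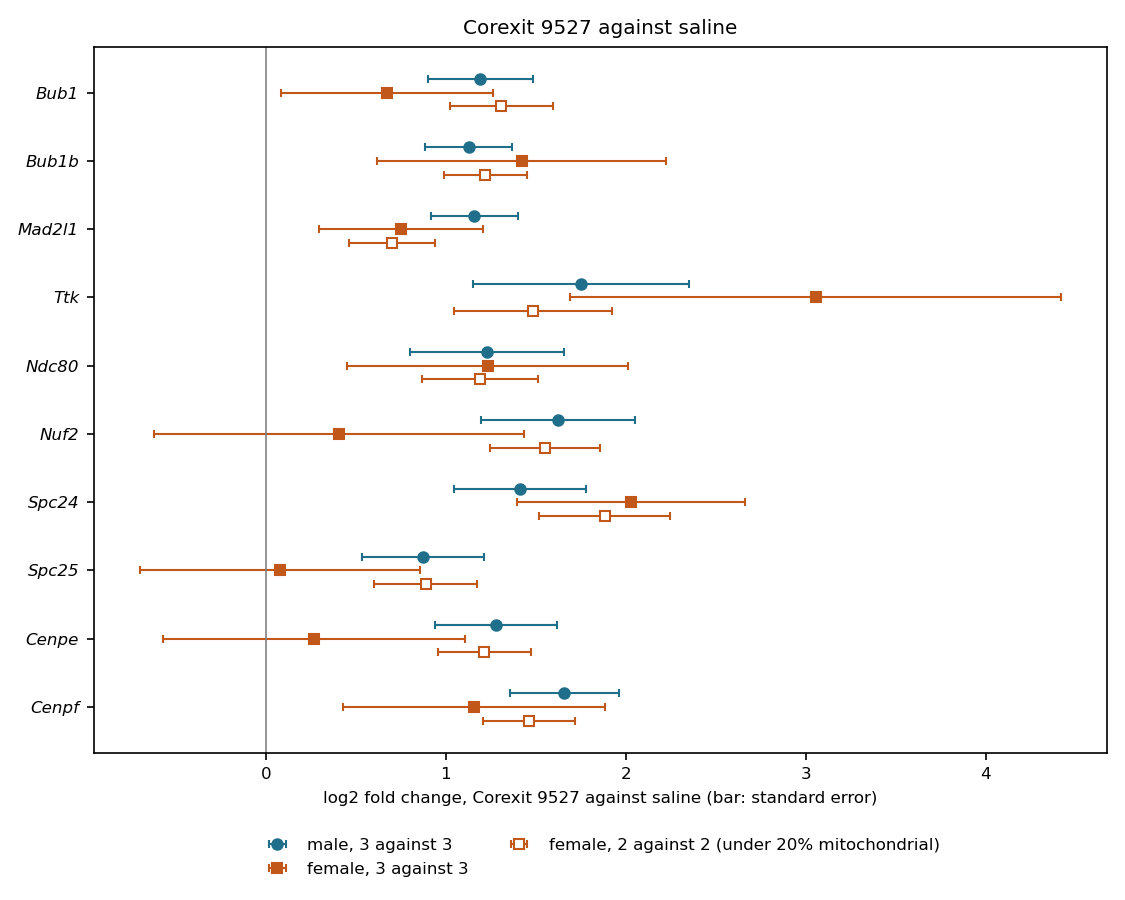
Log2 fold change of each gene in Corexit 9527 against saline mice (x axis, bars are standard errors) in male mice (circles), in female mice (filled squares) and in female mice without the 2 libraries with over 20% mitochondrial counts (open squares). The male and the open female points lie between 0.70 and 1.88, and the filled female points, from 0.08 to 3.05, have the longest bars.

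With both sexes in the same fit and sex as a covariate, 0 of the 10 genes were called at an adjusted p under 0.05 (0.0326% of 15328 genes), and 7 were higher at an unadjusted p under 0.05 (2.26% of all). Spc24 had the lowest adjusted p, 0.168, at a log2 fold change of 1.71 ± 0.30 (3.27-fold), and Nuf2, Spc25 and Cenpe did not pass the unadjusted threshold (1.01 ± 0.62, 0.47 ± 0.43 and 0.77 ± 0.49). Without overlap in both sexes, Spc24 and Ttk were higher, against 0.946% of all genes. Without the 2 libraries with over 20% mitochondrial counts, 8 of the 10 were called, against 2.13% of all genes, with adjusted p values from 0.00463 (Cenpf) to 0.0459 (Ndc80). The remaining pair were Ttk (1.64 ± 0.41, adjusted p = 0.0654) and Spc25 (0.88 ± 0.22, adjusted p = 0.0692). The median log2 fold change was 1.12 with all mice and 1.25 without these libraries.

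Oil given with Corexit 9527 went with lower levels of all 10 genes than Corexit 9527 alone. Over both sexes, 4 of the 10 fell at an adjusted p under 0.05, against 0.559% of the 15396 genes tested, and 10 of 10 were lower at an unadjusted p under 0.05, against 8.73% of all genes. The log2 fold changes ran from -0.89 (Bub1b) to -2.24 (Ttk) with a median of -1.51, where the median of all genes was 0.0085. In both sexes 8 of the 10, all but Spc24 and Cenpe, were lower without overlap, against 3.39% of all genes. Since the Corexit 9527 mice are the same as in the comparison with saline, the 2 comparisons are not independent.

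Bub1 had the lowest adjusted p. In male 9527+oil mice it was at 3.38, 3.96 and 2.82 CPM and in female ones at 2.64, 1.71 and 2.44 CPM, below every Corexit 9527 mouse of the same sex (-1.60 ± 0.19, 3.04-fold lower, adjusted p = 0.0145). Mad2l1 was at 11.1, 7.70 and 9.03 CPM in male and 10.1, 8.61 and 11.1 CPM in female 9527+oil mice (-1.17 ± 0.20, 2.25-fold lower, adjusted p = 0.0289). Nuf2 was at 2.99, 2.04 and 3.25 CPM in male and 1.86, 2.31 and 2.75 CPM in female mice (-2.001 ± 0.37, 4.00-fold lower, adjusted p = 0.0416). The female values of Bub1, Nuf2 and Spc25 also lay below those of all 3 saline females, as did 7.05% of all genes. The male values of Bub1, Nuf2 and Spc25 overlapped with those of saline males. Spc25 was at 2.56, 2.15 and 3.32 CPM in male and 2.12, 1.80 and 2.55 CPM in female mice (-1.54 ± 0.29, 2.90-fold lower, adjusted p = 0.0427).

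The other 6 genes had adjusted p values of 0.0631 (Cenpf) to 0.136 (Spc24) in this comparison. Ttk had the largest difference (-2.24 ± 0.48), with 0.953, 1.10 and 0.586 CPM in male and 0.586, 0.728 and 1.39 CPM in female 9527+oil mice. Ndc80 was at 2.12, 1.38 and 2.07 CPM in male and 1.43, 1.24 and 2.01 CPM in female mice (-1.72 ± 0.40). Both genes were below every Corexit 9527 mouse of the same sex. Bub1b was at 8.58, 8.25 and 9.93 CPM in male and 7.94, 5.65 and 7.89 CPM in female mice (-0.89 ± 0.21). Cenpf was at 6.58, 3.58 and 5.08 CPM in male and 4.98, 3.81 and 6.07 CPM in female mice (-1.49 ± 0.30). In Bub1b the gap to the Corexit 9527 females was narrow, with 8.03 CPM in mouse 11. Spc24 was at 1.95, 1.21 and 2.27 CPM in male and 1.66, 1.16 and 1.66 CPM in female mice (-1.06 ± 0.27), and Cenpe at 6.71, 4.62 and 4.30 CPM and 5.27, 3.98 and 4.18 CPM (-1.35 ± 0.28). Only in these 2 genes did a 9527+oil male exceed the lowest Corexit 9527 male.

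The number of genes called in this comparison rested on single mice. Leaving out a mouse at a time gave 0 to 10 called genes, with 0 without female 9527+oil mouse 16 or 18, male 9527+oil mouse 16 or male Corexit 9527 mouse 10. It gave 1 without any of female Corexit 9527 mice 10 and 12, female 9527+oil mouse 17, male Corexit 9527 mouse 11 and male 9527+oil mice 17 and 18, 6 without male Corexit 9527 mouse 12 and 10 without female Corexit 9527 mouse 11, the library with 38.4% mitochondrial counts. The fit without mouse 11 called 6.63% of all genes. In each of these 12 fits all 10 genes were lower at an unadjusted p under 0.05, with medians from -1.28 to -1.66. Within the sexes, 9 of 10 were lower at an unadjusted p under 0.05 in male mice (median -1.12), as were 959 of all 14882 genes tested, and 10 of 10 in female mice (median -1.79), as were 702 of all 14989. None of the 10 passed the adjusted threshold there. In female mice without mouse 11, 5 were called (Bub1 among them, median -1.58), and 116 of all 15325 genes.

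**Figure D3:**
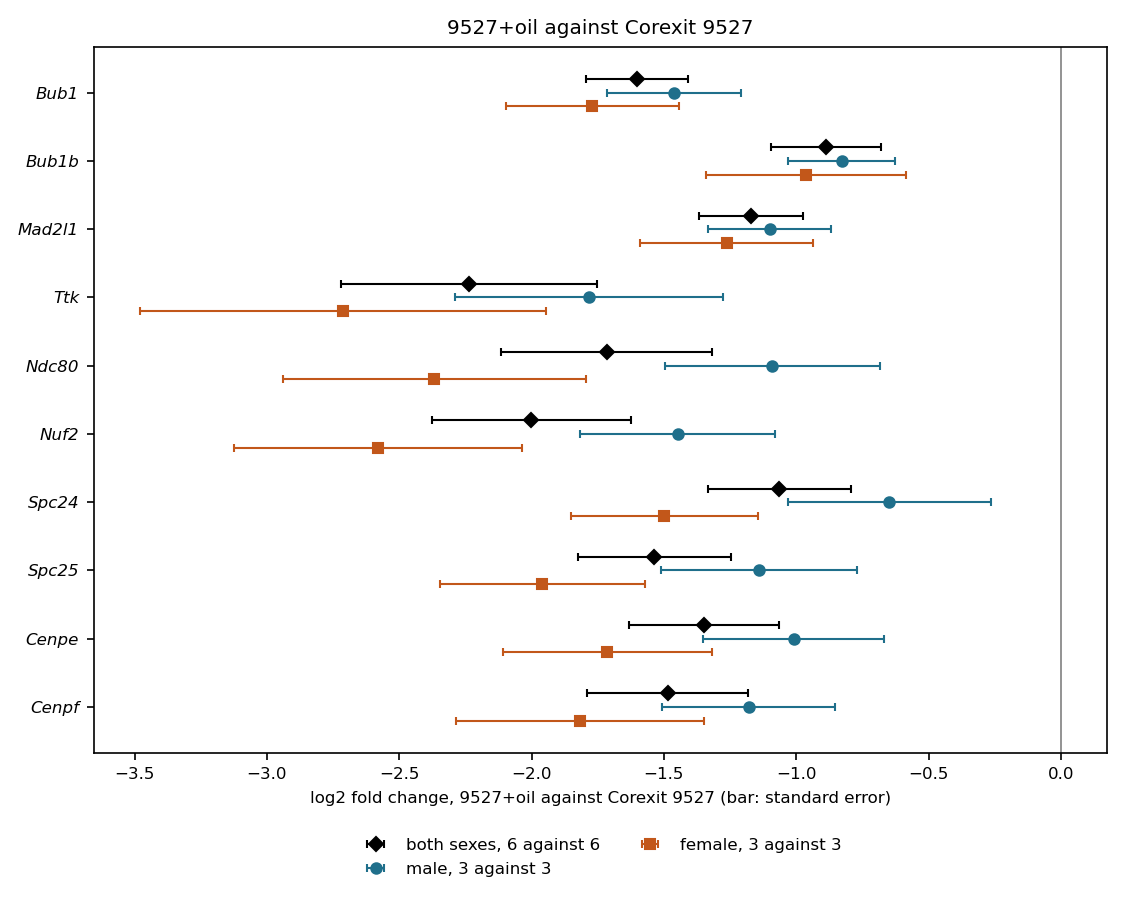
Log2 fold change of each gene in 9527+oil against Corexit 9527 mice (x axis, bars are standard errors) over both sexes (diamonds), in male mice (circles) and in female mice (squares). All 30 points lie below 0, between -0.65 and -2.71.

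Against saline, 9527+oil itself gave 0 of 10 genes higher at an unadjusted p under 0.05 in male mice (3.54% of all genes) and 0 in female mice (0.242% of all), where Spc25 was lower (0.861% of all genes were, -1.87). The median log2 fold change was 0.16 in male mice, and -0.87 in female mice or -0.23 without saline mouse 3. Corexit 9500, the other dispersant, gave 5 of 10 genes higher in male mice (Bub1b, Mad2l1, Spc24, Cenpe and Cenpf; 4% of all genes) and 1, Spc24, in female mice (0.155% of all). None of these passed the adjusted threshold in edgeR, with a lowest adjusted p of 0.688 for Cenpf in male mice, where DESeq2 called 1 of the 10 and 49 of all 15116 genes. Male Corexit 9500 mice had 9.53, 10.8 and 5.15 CPM of Cenpf and 2.30, 2.97 and 2.00 CPM of Spc24, all above the saline males, and mouse 9 was the lowest of its group in all 10 genes. The medians were 0.77 in male and 0.04 in female mice, the latter 0.71 without saline mouse 3.

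Oil alone gave 4 of 10 genes higher at an unadjusted p under 0.05 in male mice (Bub1b, Mad2l1, Spc24 and Cenpf, 5.75% of all genes, median 0.65). In female mice it gave 0 (0.0472% of all, median -0.44, and 0.01 without saline mouse 3 and oil mouse 6). Mice given 9500+oil had 3 higher in males (Bub1b, Spc24 and Cenpf, 5.19% of all genes, median 0.39). Females had 0 (0.0135% of all, median -0.10, and about 0 without saline mouse 3 and 9500+oil mouse 14). None of these was called at an adjusted p under 0.05 by edgeR, DESeq2 or voom with quality weights. When single mice were left out, the number of the 10 genes higher at an unadjusted p under 0.05 in male mice ranged from 2 to 5 in oil, 3 to 7 in Corexit 9500 and 0 to 3 in 9500+oil (0 without male 9500+oil mouse 14). Spc24 and Cenpf were higher without overlap in male mice in oil (7.44% of all genes), Corexit 9500 (6.35%), Corexit 9527 (10.5%) and 9500+oil (7.84%), and Spc24 also in 9527+oil (5.73%). Spc25 was lower without overlap in male 9500+oil mice (7.60% of all genes). These comparisons share the same 3 saline males, whose Spc24 levels of 0.903 to 1.16 CPM lie close together.

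**Figure D4:**
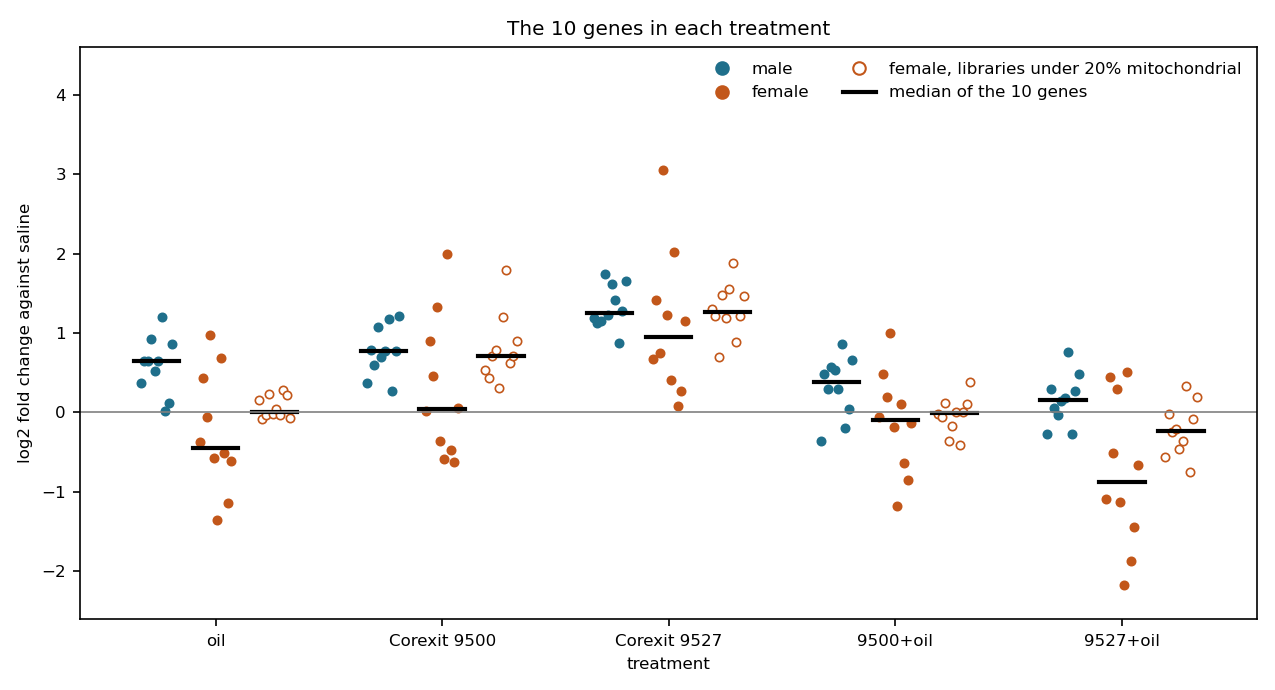
Log2 fold change against saline (y axis) of the 10 genes, 1 point a gene, for each of the 5 treatments in male mice (blue), female mice (orange) and female mice without the libraries with over 20% mitochondrial counts (open), with a black bar at the median. The highest medians are those of Corexit 9527, at 1.25 in male mice, 0.95 in female mice and 1.26 without these libraries.

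The dispersants were also compared with each other, at the same dilution and days. Over both sexes the 10 genes were all higher in Corexit 9527 than in Corexit 9500, by 0.13 (Spc24) to 1.18 (Ttk) on the log2 scale with standard errors of 0.24 to 0.49 and a median of 0.72. At an unadjusted p under 0.05, 5 of 10 were higher (Bub1, Ttk, Ndc80, Nuf2 and Cenpf), against 2.13% of all genes, and edgeR, DESeq2 and voom with quality weights called none at an adjusted p under 0.05 (edgeR's lowest 0.800). Ndc80 had the smallest unadjusted p in edgeR, with 2.93, 2.86 and 2.47 CPM in male and 2.58, 2.26 and 3.18 CPM in female Corexit 9500 mice (1.05 ± 0.37). Without female Corexit 9527 mouse 11 the median was 0.51, with standard errors of 0.23 to 0.36, and 2 genes, Bub1 and Ndc80, were higher at an unadjusted p under 0.05. Over all fits without a mouse this number ran from 1 to 7. Oil with Corexit 9500 against Corexit 9500 alone gave a median of -0.37, with 9 of 10 genes below 0 and Spc24 as the only one lower at an unadjusted p under 0.05 (-1.08 ± 0.44), against 1.38% of all genes. Without 9500+oil mouse 14 of the females the median was -0.60, with 10 of 10 below 0 and 3 lower (Nuf2, Spc24 and Cenpe), as were 323 of all 15565 genes. Voom with quality weights had 9 of the 10 lower and 619 of all 15333 genes, and neither fit called any of the 10.

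The other genes of the kinetochore and the checkpoint were counted in 6 lists in Corexit 9527 against saline over both sexes, where none was called at an adjusted p under 0.05. The chromosomal passenger complex, which corrects faulty attachments, and the shugoshins, which guard centromeric cohesion, were higher at an unadjusted p under 0.05 in 6 of 6 genes (median log2 fold change 1.48), against 2.26% of all genes. Of the RZZ complex and its adaptor Spindly, which bring dynein to the kinetochore, 3 of 4 were higher (median 1.20), of the Ska complex, which holds onto the microtubule, 1 of 3 (1.03), and of the other genes of the outer kinetochore network 2 of 6 (0.75). The inner kinetochore, which binds the centromere throughout the cell cycle, had 4 of 21 genes higher (0.60). Among 5 partners of the checkpoint proteins, Bub3, Mad1l1, Cdc20, Trip13 and Mad2l1bp, 0 were higher at that threshold in edgeR (0.30). In male mice their summed level was nevertheless separate, at 100 to 115 CPM in Corexit 9527 and 90.1 to 93.7 CPM in saline. In female mice it overlapped, at 37.7 to 107 CPM and 35.9 to 105 CPM. The study, which used DESeq2, lists Mad1l1 and Trip13 as upregulated by Corexit 9527 in mice at p values under 0.05. No gene of the 6 lists was lower at an unadjusted p under 0.05.

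By edgeR's test, the 3 genes with the smallest p were Incenp, the scaffold of the passenger complex (0.96 ± 0.18, adjusted p = 0.213), Ska1 (1.97 ± 0.39, adjusted p = 0.265) and Kntc1 of the RZZ complex (1.63 ± 0.37, adjusted p = 0.389). The 3 with the smallest p among genes below 0 were Mad2l1bp (-0.07 ± 0.50), Bub3 (-0.03 ± 0.27) and the gene listed as Stra13, also called Cenpx (-0.03 ± 0.49). Bub3 and Mad1l1 are known to be expressed outside mitosis as well. Cdc20 and Trip13 stood at 1.05 ± 0.49 and 1.52 ± 0.70, within the range of the 10 genes in size and in error. In 9527+oil against Corexit 9527, the same lists had 6 of 6 genes lower at an unadjusted p under 0.05 (passenger complex and shugoshins, median -1.56), 3 of 4 (RZZ, -1.50), 3 of 3 (Ska, -1.08), 4 of 6 (outer network, -0.48), 11 of 21 (inner kinetochore, -0.98) and 0 of 5 (partners, 0.00), against 8.73% of all genes. Casc5, also called Knl1, the scaffold on which the Ndc80 complex and the Bub proteins meet, fell in this comparison (-1.81 ± 0.30, adjusted p = 0.0274), as did Zwilch (-1.53 ± 0.28, 0.0385), Birc5 (-1.46 ± 0.20, 0.0224) and Cdca8 (-1.81 ± 0.32, 0.0315).

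Genes of division outside the kinetochore were compared in the same way. Of the proliferation markers, Mki67, Top2a, Ccnb1 and Cdk1 were higher in Corexit 9527 than in saline mice over both sexes by 1.32 to 1.59 on the log2 scale, 4 of 4 at an unadjusted p under 0.05 (2.26% of all genes), and all 4 fell in 9527+oil against Corexit 9527 (adjusted p of 0.0194 to 0.0267, with 0.559% of all genes called). The replication licensing genes Mcm2 to Mcm7, which act in G1 and S phase, were higher in 5 of 6 genes with a median of 0.95, from 0.67 (Mcm3) to 1.13 (Mcm5, the 1 that did not pass), and lower in 5 of 6 in 9527+oil (8.73% of all genes), where Mcm7 fell (-0.91 ± 0.17, adjusted p = 0.0428). Of 10 regulators of the mitotic program, E2f8 (1.43 ± 0.35) and Foxm1 (1.13 ± 0.43) were higher at an unadjusted p under 0.05 in Corexit 9527 mice and none was called in either comparison.

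**Figure D5:**
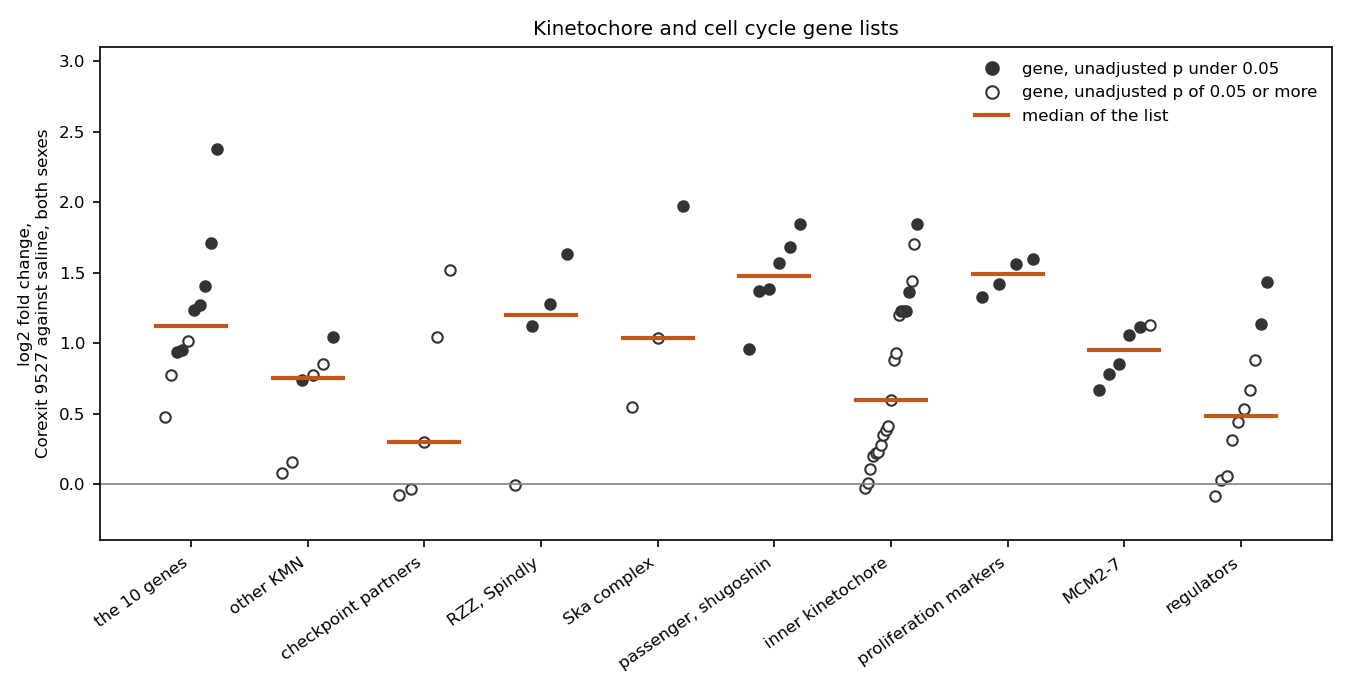
Log2 fold change in Corexit 9527 against saline mice over both sexes (y axis) of each gene of the 10 lists (x axis), with filled points at an unadjusted p under 0.05 and an orange bar at the median. The medians of the passenger complex (1.48), the proliferation markers (1.49) and the 10 genes (1.12) lie above those of the checkpoint partners (0.30) and the inner kinetochore (0.60).

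Over all 36 mice, with the mean of each sex removed, the 10 genes varied together to unequal degrees. The Pearson r of log2 CPM between pairs of them ran from -0.07 to 0.90 with a median of 0.66 over 45 pairs, and from 0.43 to 0.90 with a median of 0.74 over the 32 mice without the libraries with over 20% mitochondrial counts. Bub1b had the lowest mean r with the other 9 genes over 36 mice, 0.29, and 0.69 over the 32. The genes outside the 10 that were most like their mean were Ccna2 (r = 0.97), Kif11 (0.97), Mki67 (0.96), Top2a (0.96) and Hmmr (0.95), all of them known to be expressed in dividing cells. Over the 32 mice these were Ccna2, Top2a, Prc1, Kif20a and Mki67 (0.96 to 0.97). The points share their library and its depth, and the treatment groups are among the sources of this likeness.

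Markers of other cells moved in part with the same groups. In male Corexit 9527 against saline mice, 3 of 5 erythroid markers were lower at an unadjusted p under 0.05 (5.78% of all genes were lower and 7.96% higher), with a summed level of 1688 to 3787 CPM in Corexit 9527 and 4712 to 8039 CPM in saline, as were 3 of 4 endothelial markers (2875 to 3052 CPM against 3433 to 3849 CPM) and 2 of 5 heart muscle markers (172 to 329 CPM against 268 to 432 CPM). Of the club and ciliated cell markers 2 of 5 were lower, and their summed levels did not overlap (14937 to 18192 CPM against 19822 to 24955 CPM). Of the fibroblast markers, 3 of 4 were higher (2804 to 3233 CPM against 2119 to 2398 CPM), as were 2 of 6 alveolar macrophage markers (415 to 513 CPM against 349 to 425 CPM) and 2 of 6 of alveolar type 2 cells, and of 5 alveolar type 1 markers 1 was higher and 1 lower. Of the 4 neutrophil, 5 T cell and 4 B cell markers tested none was higher or lower at that threshold. In female Corexit 9527 against saline mice the summed fibroblast markers were also higher without overlap (2074 to 2773 CPM against 1404 to 1916 CPM). The female sums of the erythroid, endothelial, club and ciliated, heart muscle and alveolar macrophage markers overlapped between these groups. In 9527+oil against Corexit 9527 over both sexes, 3 of 4 endothelial, 3 of 5 club and ciliated, 2 of 5 neutrophil and 1 of 5 heart muscle markers were higher (5.42% of all genes), 2 of 6 alveolar macrophage, 1 of 4 B cell, 1 of 6 alveolar type 2 and 1 of 5 alveolar type 1 markers were lower (8.73%), and 1 of 4 fibroblast markers was higher and 2 were lower. None of the 5 erythroid markers passed that threshold, while their summed level in male mice did not overlap (1688 to 3787 CPM in Corexit 9527 and 3846 to 6492 CPM in 9527+oil). In the female mice of that comparison the summed macrophage markers went from 420 to 842 CPM in Corexit 9527 to 258 to 277 CPM in 9527+oil, and the endothelial ones from 2202 to 2486 CPM to 3266 to 3771 CPM, in both without overlap. The summed fibroblast markers were lower in 9527+oil without overlap in either sex. They were at 2072 to 2252 CPM against 2804 to 3233 CPM in male mice, and at 1456 to 2011 CPM against 2074 to 2773 CPM in female mice. Among genes of thymocytes, which divide at a high rate, Rag1, Dntt and Ptcra reached at most 0.316, 0.535 and 0.137 CPM in any of the 36 mice, while Cd8b1, which cytotoxic T cells also express, ran from 0 to 12.2 CPM with a median of 8.63 CPM. The part of cell composition in the levels of the 10 genes was not tested.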

How the data were processed

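Per the study's methods, RNA was sequenced with a stranded mRNA kit and paired reads of 150 bases, and the authors quantified transcripts with Salmon against the GRCm38 cDNA set and joined the libraries with tximport. The deposited values are estimated counts, an expected count per gene symbol in whole numbers, in a separate table for each sex. The submitters' processing notes name Salmon and GRCm38, and the version of Salmon is not given in the sources used here. No row sums to less than 10, and 24 rows per table are named by dates. From either table, 4 rows whose name occurs more than once were left out (at most 0.0128% of counts).

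Groups, sex and mouse numbers were taken from the labels. Counts were filtered with filterByExpr, normalized by TMM and tested with edgeR 4.0.16 (quasi-likelihood, two-sided) in R 4.3.3, within each sex or over both sexes with sex as a covariate, on the mice of the groups compared, with Benjamini-Hochberg adjustment over all genes tested at 0.05. A gene was called when its adjusted p was under 0.05. Standard errors are the log2 fold change over the square root of its F statistic, and log2 CPM values used a prior count of 2. DESeq2 1.42.0 and limma 3.58.1 (voom with quality weights) were alternatives, along with other filters and normalization, a fit of all 6 groups, fits without libraries over 20% mitochondrial counts and fits without each mouse. The code was tested on simulated data. The interval of a 0 (3 counts) covers counting error only, and the p-values measure the spread between mice, whose cages are not given. Gene coordinates are those of GENCODE on GRCm38, and promoters are those of RefSeq (GRCm38.p6). All 10 genes are named, and among the other kinetochore lists the 3 genes with the smallest p in each direction in Corexit 9527 against saline over both sexes were named, with further genes named after their values were seen. The genes most like the 10 were the 5 with the highest Pearson r to their mean. Values of some listed genes are not reported here. The members and lists were chosen with earlier results of these data known.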

Additional observations from a re-analysis of the deposited data

How the results depend on the processing

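No result past a threshold changed direction under the alternatives run. In male mice, Corexit 9527 against saline gave 7 called genes with DESeq2 (587 among all genes), 5 with all 6 groups in one fit (284), 1 with voom with quality weights (111) and 0 to 4 when a mouse was left out (4 without Corexit 9527 mouse 12, 211 among all), against 0 and 17 in the fit reported. Over both sexes it gave 2 with DESeq2 (127), 4 with all 6 groups (106), 10 with voom (796) and 8 without the libraries over 20% mitochondrial counts (331), against 0 (5), and 0 in each of the 12 fits without a mouse. In 9527+oil against Corexit 9527 over both sexes it was 10 with DESeq2 (629), 7 with all 6 groups (159), 10 with voom (1570), 10 without those libraries (1039), 0 in males only, 0 in females only and 0 to 10 when a mouse was left out, against 4 (86). The fits within a sex were chosen after seeing the data, as were those leaving out a mouse in that comparison, and they hold fewer mice. Corexit 9500 in male mice gave 1 with DESeq2 (49) against 0 (1). The cause of the other changes was not tested. DESeq2's size factors, no filter and the filter of 10 counts in every library changed the number of called genes among the 10 only in 9527+oil against Corexit 9527, where the last of these called 6 against 4. It left 7 of the 10 in Corexit 9527 against saline over both sexes, 4 of them higher at an unadjusted p under 0.05 against 7 of 10 in the fit reported. Over all genes, the calls in Corexit 9527 against saline went from 17 to 70 with no filter and 89 with the filter of 10 counts in male mice, and from 5 to 2 with DESeq2's size factors or no filter over both sexes.

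Mouse numbers recur in males and females. The deviations of same-numbered mice from their group means correlated between -0.45 and 0.29 over 18 pairs, 10 of them over 0.1 (all 3 in saline). Pairing was taken to need every pair over 0.1, and the number was not used as a pairing. Treatments share no number, so that no block could be set in the comparisons of treatments. With the mouse number as a replicate block, the tests of sex differences gave 0 called genes in each of the 5 treatments, as without it. The depth limits Ttk and Spc24 most, with medians of 31 and 40.5 counts.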
